A study of Mus musculus with 12 samples.

Results

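AP-1 and Egr factors are transcription factors of the immediate early response, chosen here by name as 10 listed genes: *Fos*, *Fosb*, *Fosl2*, *Jun*, *Junb*, *Jund*, *Atf3*, *Egr1*, *Egr2* and *Egr3*. Of these, 7 were found by symbol among the 15651 genes of the expression table (*Fos*, *Fosl2*, *Jun*, *Junb*, *Jund*, *Atf3* and *Egr1*), and *Fosb*, *Egr2* and *Egr3* were not analysed here. RNA was measured in leukemic splenocytes enriched for c-Kit, a stem and progenitor receptor, from 3 *D/F* mice (Dnmt3afl/fl,Flt3ITD/ITD,Mx1Cre) and 3 *T/F* mice (Tet2fl/fl,Flt3ITD/ITD,Mx1Cre) that were moribund with acute myeloid leukemia (AML). The cells of each mouse were split between DMSO and CCS1477 (inobrodib), an inhibitor of the bromodomains of the histone acetyltransferases p300 and CBP, and kept for 6 hours in medium with SCF, IL6 and IL3. This gave 12 libraries in 4 groups of 3. CCS1477 was used at 4 µM in *D/F* and at 2 µM in *T/F* cells, so genotype and dose cannot be told apart. All groups carry the Flt3 internal tandem duplication on both alleles from the germline. The Mx1 promoter that drives Cre was not switched on with an inducer, so deletion of the floxed gene rests on leaky Cre activity and can be partial, and cells of a mouse may differ in genotype. The ages of these individual donor mice were not given in the sources used here, and the study gives a shorter survival for *T/F* than for *D/F* mice.

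Fos and Jun proteins carry a basic leucine zipper, through which a Fos protein pairs with a Jun protein and the dimer, called AP-1, binds DNA. Jun proteins can also pair with each other, and ATF3, a relative induced by stress, pairs with Jun proteins and often represses. EGR1 is a zinc finger factor that binds GC-rich sites. Growth factors, cytokines and stress raise *Fos*, *Jun*, *Junb*, *Atf3* and *Egr1* within minutes to an hour through factors that already sit on their promoters, such as the serum response factor, its partners of the ELK family and CREB, which recruits CBP and p300. *Jund* is expressed more steadily in most cells. In myeloid cells these factors take part in differentiation and in inflammatory gene expression.

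The 250 bases before the transcription start are shown for *Fos*, *Jun* and *Junb*, since such signals act on these genes through their promoters. The sequences come from RefSeq for GRCm38.p6 and run 5′ to 3′ on the strand of the gene. Capitals mark matches on either strand to TGACG, the core of a CREB site, and to TGACNTCA, the AP-1 and ATF site with 8 positions. The windows are chr12:85473640-85473889 (plus strand) for *Fos*, chr4:95052223-95052472 (minus strand) for *Jun* and chr8:84978749-84978998 (minus strand) for *Junb*.
Fos: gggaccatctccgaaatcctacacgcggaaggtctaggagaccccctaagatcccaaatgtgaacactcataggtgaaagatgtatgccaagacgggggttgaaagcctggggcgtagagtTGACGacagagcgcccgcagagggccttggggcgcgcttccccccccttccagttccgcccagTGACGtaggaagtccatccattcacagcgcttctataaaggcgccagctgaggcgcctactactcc
Jun: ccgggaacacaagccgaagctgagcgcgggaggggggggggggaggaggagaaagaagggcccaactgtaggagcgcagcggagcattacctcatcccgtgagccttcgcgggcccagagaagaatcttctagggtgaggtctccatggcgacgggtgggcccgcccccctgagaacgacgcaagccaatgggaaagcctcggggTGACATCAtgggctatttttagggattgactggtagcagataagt
Junb: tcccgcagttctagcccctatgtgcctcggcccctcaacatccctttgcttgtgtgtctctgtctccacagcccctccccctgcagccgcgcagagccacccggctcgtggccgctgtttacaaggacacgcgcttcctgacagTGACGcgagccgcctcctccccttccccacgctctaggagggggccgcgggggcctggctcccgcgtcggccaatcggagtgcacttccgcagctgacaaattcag

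The *Fos* window held TGACG at 66 to 62 and at 129 to 125 bases before the start. The *Jun* window held TGACATCA at 45 to 38 bases, a match to TGACNTCA, and the *Junb* window held TGACG at 106 to 102 bases. Of the other members, *Atf3* had TGACG on the opposite strand at 7 to 3 bases, and *Fosl2* had the EGR site GCGNGGGCG at 79 to 71 bases. Windows were matched for 6 of the 7 measured members, all but *Egr1*. None of these windows held the AP-1 site TGANTCA or the CArG box of the serum response factor. Bases farther before the start were not searched, so this absence holds for the windows only and not for the whole promoters. The *Jund* window held none of these motifs, and its RefSeq start, at position 70697739 of chromosome 8, lies before the GENCODE gene. Among 32851 windows of the same length in the RefSeq table, 17.8% held TGACG, 7.49% TGACNTCA, 6.75% TGANTCA, 4.70% GCGNGGGCG and 1.47% the CArG box. TGACG is part of TGACNTCA where N is G, so these shares overlap. A match is a description of the letters and not a measured binding site.

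TPM, a normalised transcript abundance, is scaled by transcript length, so levels can be compared between genes. In *D/F* DMSO cells *Junb* was the most abundant member, followed by *Jund*, *Fosl2* and *Jun*, while *Egr1*, *Fos* and *Atf3* were low. *Junb* was at 52.8 ± 7.83 TPM (SD, n = 3), above 76.8% of the 15651 genes. *Atf3* was at 2.57 ± 0.539 TPM, above 15.1% of them. The order of the means in *T/F* DMSO cells began in the same way, with *Junb* at 69.7 ± 16.6, *Jund* at 28.0 ± 2.74, *Fosl2* at 23.0 ± 5.91 and *Jun* at 13.7 ± 4.40 TPM, and *Fos* came next at 8.56 ± 4.72 TPM. *Jund* and *Fosl2* overlapped there, as did *Jun* and *Fos*, and *Fos*, *Egr1* and *Atf3*, so these neighbours in the order did not differ beyond their spread. In *D/F* DMSO cells the libraries of *Junb*, *Jund*, *Fosl2* and *Jun* did not overlap, and those of *Egr1*, *Fos* and *Atf3* did.

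The labelled cell type was checked first. All 12 libraries expressed *Kit*, at 22.8 to 149 TPM, *Flt3*, at 3.60 to 47.0 TPM, and the progenitor granule gene *Mpo*, at 277 to 3673 TPM, while the pan-leukocyte gene *Ptprc* was only at 0.826 to 3.11 TPM. *Dnmt3a* did not separate the genotypes with DMSO, at 29.3, 55.7 and 33.1 TPM in *D/F* and 39.9, 41.9 and 53.9 TPM in *T/F*, and a floxed exon cannot be seen in a gene total. *Tet2* was at 38.3 to 43.4 TPM in *D/F* DMSO and at 30.0 to 35.8 TPM in *T/F* DMSO. Libraries summed to 914204 to 931697 TPM, and their correlation within a group ranged from 0.947 to 0.991. The libraries of *D/F* mouse 2 had the lowest mean correlation with their group in *D/F*, 0.950 with DMSO and 0.953 with CCS1477.

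The first question was whether CCS1477 changed these factors within each genotype. A gene was called when limma gave an adjusted p under 0.05 and a change above 2-fold on log2(TPM + 1), a scale that understates the change of low genes. By this rule 0 of the 7 members were called in *D/F*, where 7.28% of 15501 genes were called, and 1 had an unadjusted p under 0.05 (30.4% of genes). Without *D/F* mouse 2, whose libraries had the lowest correlations in *D/F*, the count above 2-fold was also 0. Among the members in *T/F* cells 0 were called, against 7.33% of 15256 genes, and 3 had an unadjusted p under 0.05 (51.7% of genes). When the fold limit was dropped, 0 members passed the adjusted p limit in *D/F*, where 11.6% of genes did, and 1 passed in *T/F*, where 43.4% did. With the mouse as a block in the fit, since the DMSO and CCS1477 cells came from the same mice, 1 of 7 members rose in *D/F* against a background of 21.4% of genes that rose, and 0 fell (18% of genes). In *T/F*, the blocked fit had 1 member that rose, against 31.2% of genes, and 4 that fell, against 22.9% of genes. The median log2 change of the members came to 0.21 for *D/F* and -0.35 for *T/F*, next to 0.06 and 0.07 for all genes tested.

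**Figure D1:**
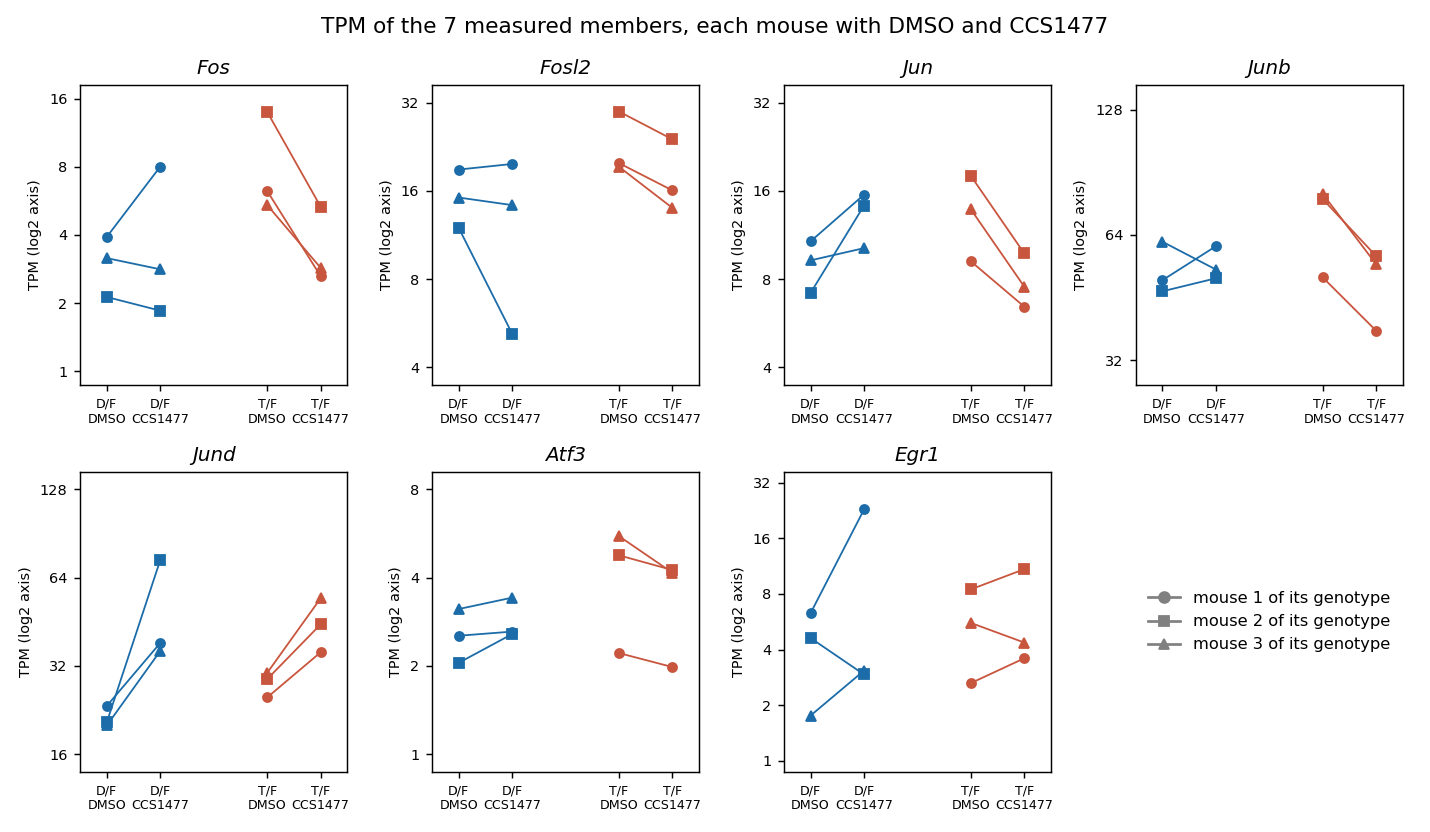
TPM of each measured member (vertical log2 axis) with DMSO and CCS1477, where a line joins the cells of a mouse and the marker gives its number within *D/F* (blue) or *T/F* (red). *Jund* was higher with CCS1477 in all 6 mice, while *Jun* went up in all 3 *D/F* mice and down in all 3 *T/F* mice. The *Jun* difference between genotypes, at unequal doses, did not pass its test.

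*Jund*, the steadily expressed Jun protein that in many cells restrains growth, was the member that rose. In *D/F* it was at 23.4, 20.6 and 20.0 TPM with DMSO and at 38.3, 73.5 and 36.0 TPM with CCS1477 in mice 1, 2 and 3. The *T/F* mice had 25.0, 28.8 and 30.3 TPM with DMSO and 35.6, 44.3 and 54.4 TPM with CCS1477. All libraries with CCS1477 lay above all DMSO libraries of their genotype, and *D/F* mouse 2 with CCS1477 stood highest. Groups did not overlap in this way for 1 of 7 members in *D/F*, against 36.6% of all genes, and for 2 of 7 in *T/F*, against 56.1%. Higher values in all 6 mice were found for 31.8% of 15583 genes. Over both genotypes the log2 change of *Jund* was 0.87 ± 0.18 (SE, adjusted p = 0.00237, limma), and *Jund* was the 1 member of 7 to pass at any fold, where 45.3% of 15583 genes passed. Above 2-fold, 0 members were called there, against 8.8% of genes. It passed in all 13 alternative fits of that comparison. Within *D/F* the log2 change was 1.10 ± 0.29 (SE) with an adjusted p of 0.0583, and the blocked fit, with an adjusted p of 0.0342, called the gene, as it did 4.23% of genes in that direction. Without *D/F* mouse 2 the change was 0.75 with an adjusted p of 0.0284, and without mouse 1 or mouse 3 it was 1.30 and 1.24 with adjusted p of 0.245 and 0.283. Within *T/F* the log2 change was 0.64 ± 0.17 (SE, adjusted p = 0.0246, limma; blocked adjusted p = 0.00721). The adjusted p was 0.147 without *T/F* mouse 2 (change 0.66) and 0.0610 without *T/F* mouse 3 (change 0.55). Exact permutation of 3 against 3 samples cannot give a p below 0.1, so that test cannot pass 0.05 here.

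*Jund* is a gene with 1 exon at chr8:70698949-70700616 (plus strand, GRCm38, GENCODE vM21), and an antisense gene, *Gm11175*, covers 919 bases of it on the minus strand. Whether the read counting used strand is not given in the sources used here, so reads from these genes cannot be told apart. *Gm11175* was at 5.25, 10.6 and 17.6 TPM with DMSO and at 23.6, 59.5 and 35.4 TPM with CCS1477 in the *D/F* mice. In *T/F* it went from 15.9, 15.7 and 14.8 TPM to 19.1, 31.5 and 33.8 TPM. It thus moved the same way as *Jund* in each mouse, with a log2 change over both genotypes of 1.28 ± 0.31 (SE, adjusted p = 0.00611, limma). Its part in the *Jund* values was not tested.

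**Figure D2:**
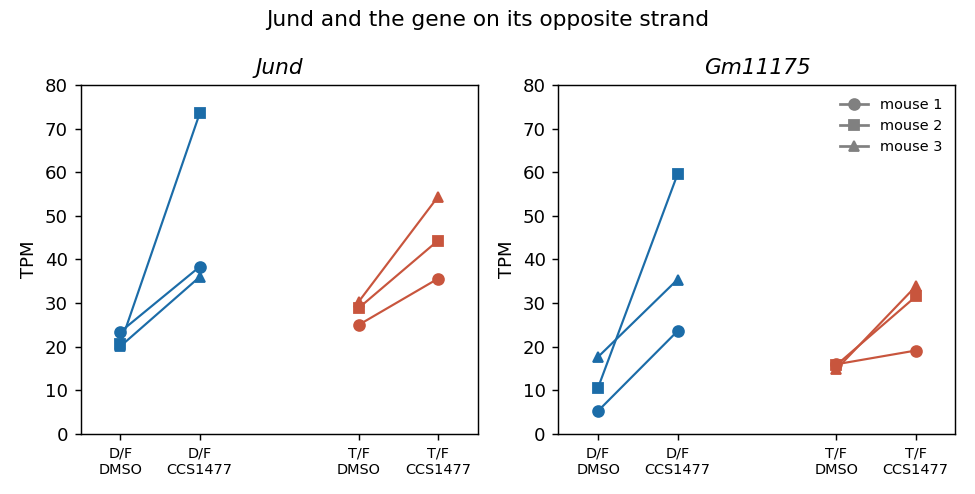
TPM (vertical linear axis) of *Jund* and of *Gm11175*, which lies on its opposite strand, with lines joining the cells of a mouse in *D/F* (blue) and *T/F* (red). In all 6 mice both genes were higher with CCS1477, and *D/F* mouse 2 reached the highest value of each, 73.5 and 59.5 TPM.

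*Fos*, the founding partner of Jun proteins in AP-1, was lower with CCS1477 in each *T/F* mouse and uneven in *D/F*. *T/F* cells had *Fos* at 6.26, 14.0 and 5.42 TPM with DMSO and at 2.64, 5.34 and 2.87 TPM with CCS1477. These groups did not overlap, and *T/F* mouse 2 was the highest of both. The log2 change was -0.99 ± 0.38 (SE), with an adjusted p of 0.0837 in the main fit and 0.00567 with the mouse as a block. On the log2(TPM + 1) scale this change falls just short of the 2-fold limit. In TPM, CCS1477 cells had 0.421, 0.382 and 0.528 times the *Fos* of DMSO cells in mice 1, 2 and 3, and with a pseudocount of 0.1 the log2 change was -1.16 (adjusted p = 0.0900, limma). Without *T/F* mouse 2 the change was -0.87 with an adjusted p of 0.0257. Without *T/F* mouse 1 or mouse 3 it was -0.99 and -1.12, with adjusted p of 0.227 and 0.152 (limma). With the 4 groups in 1 fit the adjusted p was 0.135. In *D/F* the values were 3.92, 2.13 and 3.16 TPM with DMSO and 8.02, 1.85 and 2.82 TPM with CCS1477. Mouse 1 went up and the other *D/F* mice went slightly down, giving a log2 change of 0.21 (95% interval -0.85 to 1.26, adjusted p = 0.797, limma). The *Fos* gene lies at chr12:85473890-85477273 on the plus strand, and no other annotated gene overlaps it.

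*Fosl2*, which encodes the Fos protein FRA-2, was slightly lower in each *T/F* mouse. The *T/F* values were 19.9, 29.8 and 19.3 TPM with DMSO and 16.1, 24.0 and 14.0 TPM with CCS1477. The groups overlapped because mouse 2 stood above the others under both treatments, and the log2 change of -0.35 ± 0.25 (SE) had an adjusted p of 0.306, which became 0.0127 with the mouse as a block. In *D/F*, *Fosl2* was at 18.9, 11.95 and 15.2 TPM with DMSO and at 19.8, 5.21 and 14.3 TPM with CCS1477. Only *D/F* mouse 2 moved by more than 0.1 on the log2 scale there, and without that mouse the *D/F* change went from -0.36 to -0.01.

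*Jun* was higher with CCS1477 in each *D/F* mouse and lower in each *T/F* mouse, at unequal doses. The difference between the genotypes did not pass its test (blocked adjusted p = 0.171, limma interaction). In the *D/F* mice it was at 10.8, 7.18 and 9.27 TPM with DMSO and at 15.5, 14.3 and 10.2 TPM with CCS1477, higher in 3 of 3 mice with overlapping groups. In the *T/F* mice it was at 9.20, 18.0 and 13.8 TPM with DMSO and at 6.44, 9.79 and 7.54 TPM with CCS1477, lower in 3 of 3 mice. The log2 change in *D/F* was 0.51 ± 0.22 (SE) with an adjusted p of 0.184, or 0.0844 with the mouse as a block, and without *D/F* mouse 2 it was 0.31. The *T/F* change was -0.69 ± 0.26 (SE) with an adjusted p of 0.0760, and *Jun* fell with the mouse as a block (adjusted p = 0.00842, limma). Over both genotypes the change was -0.09 ± 0.24 (SE). *Jun* (chr4:95049034-95052222, minus strand, 1 exon) shares 689 bases with the antisense gene *Junos*. *Junos* was at 22.6, 14.9 and 15.0 TPM with DMSO and 11.6, 12.4 and 7.97 TPM with CCS1477 in *D/F*, lower while *Jun* was higher. *T/F* cells had *Junos* at 7.45 to 11.7 TPM with DMSO and 8.00 to 9.91 TPM with CCS1477, and its part in the *Jun* values was not tested.

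*Junb*, the most abundant member and a brake on myeloid proliferation, was lower in the *T/F* mice. It was at 50.6, 78.1 and 80.3 TPM with DMSO and at 37.6, 56.9 and 54.4 TPM with CCS1477, down in 3 of 3 mice by similar steps. The log2 change of -0.47 ± 0.24 (SE) had an adjusted p of 0.161, and 0.00561 with the mouse as a block. Without *T/F* mouse 1, the lowest under both treatments, the change was -0.50 with an adjusted p of 0.0337. Without *T/F* mouse 2 or mouse 3 it was -0.49 and -0.43, with adjusted p of 0.330 and 0.345 (limma). In *D/F* the values were 49.8, 46.8 and 61.6 TPM with DMSO and 60.1, 50.3 and 52.8 TPM with CCS1477, a log2 change of 0.05 (95% interval -0.36 to 0.46). *Junb* (chr8:84974484-84978718, minus strand) shares 351 bases at its 3′ end with *Prdx2*, an abundant peroxidase gene at 111 to 177 TPM, which changed by -0.15 in *D/F* cells and by -0.07 in *T/F* cells on the log2 scale.

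*Atf3* stayed low in every group. It was at 2.53, 2.05 and 3.13 TPM with DMSO and 2.62, 2.57 and 3.42 TPM with CCS1477 in *D/F*. In *T/F* it was at 2.21, 4.76 and 5.54 TPM with DMSO and 1.98, 4.24 and 4.16 TPM with CCS1477. It was slightly higher in 3 of 3 *D/F* mice and slightly lower in 3 of 3 *T/F* mice, and the adjusted p of 0.703 and 0.679 did not pass. The blocked adjusted p were 0.342 and 0.0849.

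*Egr1* varied widely between mice, with a coefficient of variation of 52.5 to 119% within groups. In *D/F* it was at 6.30, 4.61 and 1.76 TPM with DMSO and at 22.9, 2.93 and 3.07 TPM with CCS1477. The mean of the CCS1477 group, 9.65 ± 11.5 TPM (SD, n = 3), therefore rests on mouse 1, and the log2 change of 0.59 ± 0.76 (SE, adjusted p = 0.653, limma) was 0.02 without that mouse. *D/F* mouse 1 was also the mouse with the highest *Fos* with CCS1477. In *T/F*, *Egr1* was at 2.63, 8.47 and 5.57 TPM with DMSO and at 3.59, 10.9 and 4.36 TPM with CCS1477, a change of 0.12 with a 95% interval of -1.07 to 1.32.

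**Figure D3:**
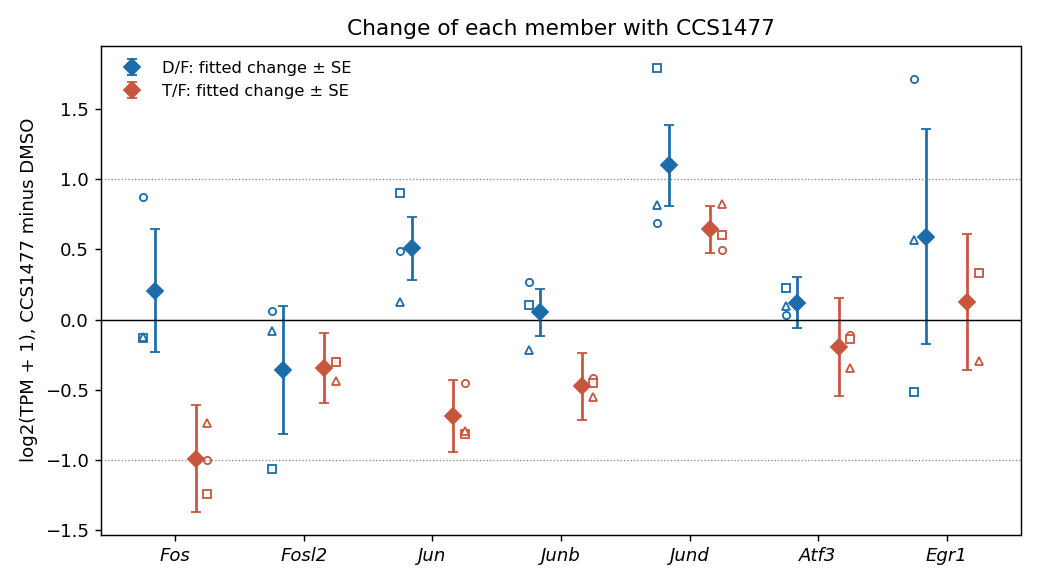
Change of each member with CCS1477 on log2(TPM + 1) (vertical axis), as the limma estimate ± SE (diamonds) in *D/F* (blue) and *T/F* (red) beside the change of each mouse (open symbols as in the plot of TPM). Dotted lines mark 2-fold. *Jund* lay above 0 in both genotypes, at 1.10 and 0.64, and *Jun* lay above 0 in *D/F* (0.51) and below it in *T/F* (-0.69). The difference of the *Jun* responses, at unequal doses, did not pass its test.

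The second question was whether the response differed between the genotypes, which were treated at unequal doses. The change of *Jun* in *T/F* minus that in *D/F* was -1.19 ± 0.35 (SE, 95% interval -1.98 to -0.41, unadjusted p = 0.00671, limma interaction). Over 15583 genes the adjusted p was 1.00, and it was 0.171 with the mouse as a block. The difference for *Fos* was -1.20 ± 0.63 (SE, adjusted p 1.00 and blocked 0.219, limma). No member passed the test of the difference, and 0 of all genes did in either fit, a background of 0%, with 4.23% of genes at an unadjusted p under 0.05 in the main fit. At an unadjusted p under 0.05 there was 1 member in the main fit, *Jun*, and 4 in the blocked fit, *Jun*, *Fos*, *Junb* and *Atf3*, against 14.7% of genes. The opposite pattern in all mice, higher in *D/F* and lower in *T/F*, was seen for *Jun* and *Atf3* and for 0.712% of 15583 genes. The reverse, lower in all *D/F* and higher in all *T/F* mice, was seen for 0 members and for 1.35% of genes.

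The genotypes were then compared within each treatment, on the same libraries as above. With DMSO all 7 members had higher mean log2 levels in *T/F* than in *D/F*, with a median difference of 0.48 against -0.04 for all genes tested. *Fos* differed by 1.15 ± 0.36 (SE), *Fosl2* by 0.55 ± 0.23 and *Jund* by 0.38 ± 0.13 on the log2 scale. Groups did not overlap for these 3 members, against 12.6% of genes, but the adjusted p were 0.654, 0.811 and 0.696 (limma). No member was called, against 0.0328% of 15265 genes, and at an unadjusted p under 0.05 there were 2 members, against 6.15% of genes. With CCS1477 0 members were called, against 0.0329% of 15199 genes, and 1 had an unadjusted p under 0.05, against 10.8%. *Jun* was lower in *T/F* than in *D/F* without overlap, by -0.68 ± 0.21 (SE, adjusted p = 0.343, limma), where 20.3% of genes did not overlap.

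The make-up of the measured AP-1 members was described next, as each member's share of the summed TPM of *Fos*, *Fosl2*, *Jun*, *Junb*, *Jund* and *Atf3*. This pool is not all of AP-1, since the Fos relative *Fosl1* was not among the listed genes and was left out. Mean *Fosl1* in *D/F* was 11.9 TPM with DMSO, above *Jun* at 9.07 TPM, and 1.78 TPM with CCS1477. In *T/F* its means were 6.08 and 0.972 TPM. With DMSO *Junb* made up 50.7 ± 4.70% of the pool in *D/F* and 47.2 ± 4.08% in *T/F* (SD, n = 3). With CCS1477 its share was 40.0 ± 5.26% and 38.8 ± 1.15%. With DMSO *Jund* held 20.6 ± 2.51% of the *D/F* pool and 19.4 ± 2.73% of the *T/F* pool, which compares with 35.5 ± 12.5% and 35.2 ± 4.48% with CCS1477. The lowest *Jund* share with CCS1477, 26.5%, was above the highest with DMSO, 22.7%. *Fosl2* went from 14.7 ± 2.29% to 9.73 ± 5.44% in *D/F* and from 15.8 ± 2.84% to 14.3 ± 3.54% in *T/F*, with overlapping ranges. The pool summed to 104 ± 11.7 TPM in *D/F* DMSO cells, 137 ± 15.4 TPM in *D/F* CCS1477 cells, 147 ± 30.9 TPM in *T/F* DMSO cells and 127 ± 23.7 TPM in *T/F* CCS1477 cells. Shares add to a whole, so a higher share of *Jund* lowers the others.

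**Figure D4:**
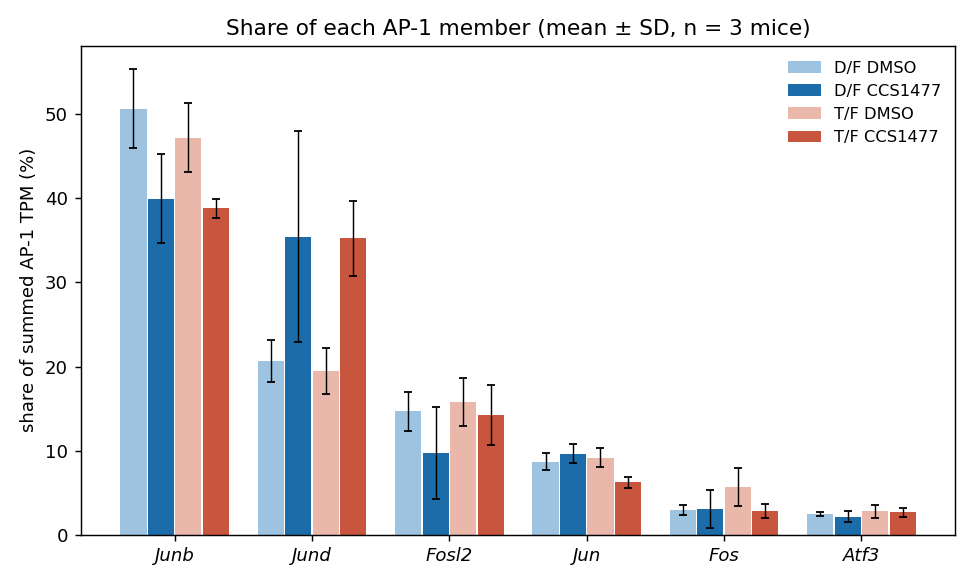
Share of the summed TPM of 6 AP-1 members (vertical axis, %) in the 4 groups, as mean with SD over 3 mice. The *Jund* bars stood at 20.6 and 19.4% with DMSO and at 35.5 and 35.2% with CCS1477, and the *Junb* bars stood lower with CCS1477.

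The members were also compared with each other across libraries. Over the 12 libraries, after subtracting the group means, *Junb* and *Atf3* had a Pearson r of 0.92, *Fos* and *Fosl2* of 0.87 and *Fos* and *Egr1* of 0.81, and *Fosl2* and *Jund* had an r of -0.66. These pairs were named for having the highest and the lowest r among all pairs of members, and the values are descriptions over libraries that share mice. Single libraries weigh on them. *D/F* mouse 2 with CCS1477 had the lowest *Fosl2* (5.21 TPM) and the highest *Jund* (73.5 TPM). *D/F* mouse 1 with CCS1477 had the highest *Egr1* (22.9 TPM), and its *Fos* (8.02 TPM) was the highest of its group. Genes closest in pattern to a member were then ranked without subtracting group means, so their r are not on the measure used for the pairs. Each is a highest value picked from 11393 genes and is a description only. Among these 11393 genes, whose mean reached 5 TPM, those closest to *Fos* over the 12 libraries were *Cdh23* (r = 0.87), *Tspo* (0.83) and *C1galt1c1* (0.82). Closest to *Egr1* were *Pmvk* (0.91), the immediate early gene *Ier2* (0.83) and *Anxa2* (0.82). Closest to *Atf3* were *Rhbdf2* (0.84), *Socs1* (0.80) and *Rps6ka4* (0.78), which encodes a kinase of the pathway that leads to immediate early genes. Closest to *Jun* were *Rpl10* (0.79), *Prorsd1* (0.74) and *Gm12867* (0.74).

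Among other basic leucine zipper factors, *Fosl1*, the Fos relative FRA-1, contrasted with the members. It was at 14.3, 10.7 and 10.8 TPM with DMSO and 1.55, 2.07 and 1.70 TPM with CCS1477 in *D/F*, and at 6.15, 6.72 and 5.36 TPM and then 0.959, 0.838 and 1.12 TPM in *T/F*. Its log2 change over both genotypes was -2.03 ± 0.11 (SE, adjusted p = 4.29e-07, limma), with no overlap in either genotype. Of 28 such factors tested over both genotypes, 0 were called up and 4 down, against 3.10% and 5.70% of all genes. The other called factors were *Cebpe* (-1.49), *Creb5* (-1.45) and *Cebpa* (-1.20), the CEBP genes being drivers of granulocyte differentiation. Within *D/F* and within *T/F* alone *Cebpe* did not pass (adjusted p = 0.0959 and 0.0605, limma). *Creb5* passed within *T/F* (adjusted p = 0.0182, limma) and not within *D/F* (0.0761). With no fold limit, 4 of the 28 rose and 6 fell, against 25.8% and 19.6% of all genes.

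The regulators upstream of the members were counted over both genotypes, where none was called above 2-fold. Of 15 kinases that act on AP-1, 7 rose and 1 fell by the adjusted p limit alone, against 25.8% and 19.6% of all genes. They included *Mapk8* (log2 change 0.66) and *Mapk9* (0.77), which encode the Jun kinases JNK1 and JNK2. *Rps6ka1*, which encodes the kinase RSK1, was the gene that fell (-0.78). Of 6 genes for the serum response factor and its partners, *Srf* (-0.53) and *Elk3* (-0.84) fell and *Elk1* (0.49) and *Mrtfb* (0.41) rose. The shares of all genes beside them were again 19.6% that fell and 25.8% that rose. Within *D/F*, *Elk3* fell in the blocked fit by -1.19 on the log2 scale, where 18% of genes fell at any fold. Its adjusted p was 0.0141 with the block and 0.0956 without it (limma). Of 5 Egr partners, *Nab1* (0.39), an EGR corepressor, and *Sp3* (0.45), which binds GC-rich sites, rose and 0 fell, beside the same shares. Counts in lists this small do not set them apart from those shares.

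Other immediate early genes moved both ways. Of 42 tested over both genotypes, 3 were called up and 3 down, against 3.1% and 5.7% of all genes, with a median log2 change of 0.16 against 0.07 for all genes. The called falls were *Myc* (-3.83), *Nr4a3* (-1.82) and *Plk3* (-1.19), and the largest called rise was *Klf2* (2.51), a zinc finger factor of quiescent leukocytes. *Nr4a3* did not pass within *D/F* or within *T/F* alone (adjusted p = 0.0911 and 0.173, limma). *Klf2* passed within *T/F* (adjusted p = 0.00142, limma) and not within *D/F* (0.0754). Of 27 genes reported as targets of AP-1 or Egr factors, 1 was called up and 7 down by the same limits (3.1% and 5.7% of all genes). At any fold 2 of them rose and 16 fell (25.8% and 19.6%), with a median of -0.65. The list was chosen with earlier results of these data known, so these counts are a description and not an independent test. The largest called falls were the matrix gene *Thbs1* (-3.87), the cytokine gene *Il1b* (-2.35), the activation marker *Cd69* (-2.26) and the cyclin gene *Ccnd2* (-1.49). *Il1b* passed within *D/F* (adjusted p = 0.0249, limma) and not within *T/F* (0.207). *Cd69* passed within *T/F* (adjusted p = 0.000711, limma) and not within *D/F* (0.0603). Of 10 heat shock genes that handling of tissue can raise, none was called, and at any fold 1 rose and 4 fell, again beside 25.8% and 19.6% of all genes.

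**Figure D5:**
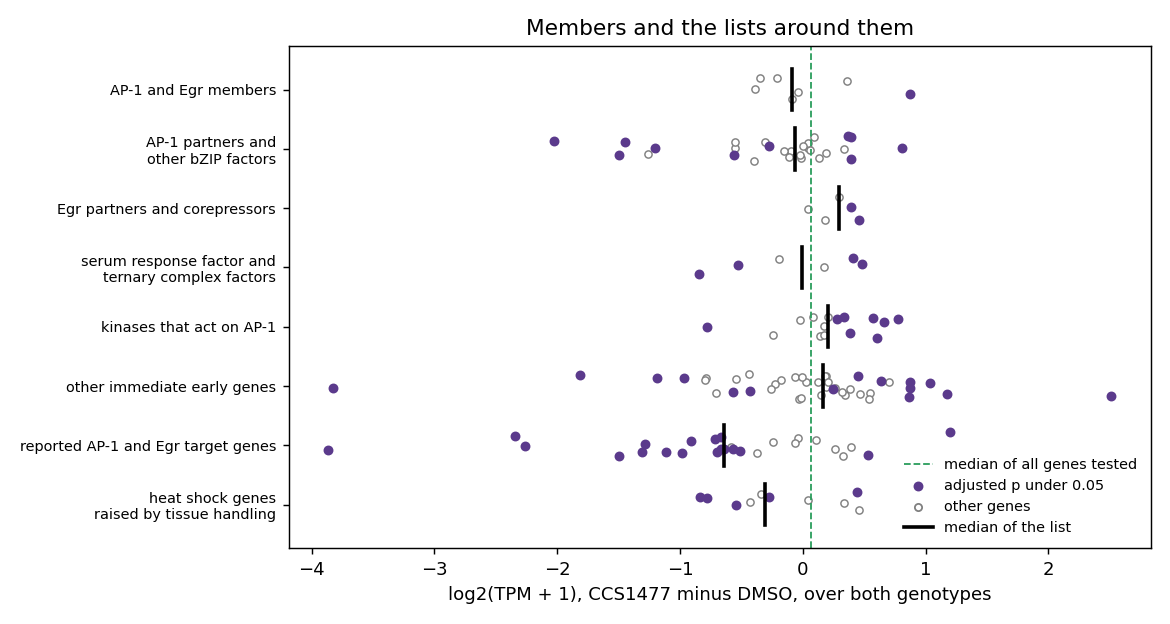
Log2 change with CCS1477 over both genotypes (horizontal axis) of the 7 measured members and of the genes of each list around them (rows), with filled points at an adjusted p under 0.05 and black bars at list medians. *Jund* (0.87) is the filled point among the members, and the target list has its median at -0.65. The lists were chosen with earlier results of these data known.

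Several marker lists of cell states moved with treatment in the same libraries. Of 10 progenitor markers, 7 were called down over both genotypes, where 5.7% of all genes were. In *D/F* these 10 markers summed to 4162 to 10497 TPM with DMSO and to 923 to 4408 TPM with CCS1477. In *T/F* they summed to 4564 to 6782 TPM and to 1869 to 3203 TPM. Granule genes weigh on these sums. *Mpo* alone was at 1163 to 3673 TPM in *D/F* DMSO cells, where *Kit* was at 50.5 to 149 TPM. Of 8 macrophage and monocyte markers, 5 were called down, with summed levels of 554 to 1403 and 172 to 595 TPM in *D/F* and 608 to 801 and 223 to 327 TPM in *T/F*. Of 9 neutrophil markers 1 was called down, and they summed to 2888 to 10063 TPM with DMSO and 1753 to 9810 TPM with CCS1477 in *D/F*, and to 2581 to 7644 and 2719 to 7303 TPM in *T/F*. Of 5 mast cell and basophil markers 4 were called down, with sums of 103 to 199 TPM with DMSO and 19.1 to 45.5 TPM with CCS1477 in *D/F*, and of 45.4 to 88.7 and 19.4 to 38.8 TPM in *T/F*. The 3 B cell markers were not called over both genotypes. In *T/F* they summed to 74.4 to 78.4 TPM with DMSO and 114 to 152 TPM with CCS1477. Above 2-fold, 1 of them was called up there, where 7.33% of 15256 genes were called either way. At any fold, 1 other B cell marker fell in *T/F*, where 43.4% of genes passed either way. The median log2 change of the 3 in *T/F* was -0.41, so the higher sum does not stand for each marker. In *D/F* the B cell sums overlapped, at 34.8 to 58.2 and 23.8 to 55.9 TPM. Of the 5 megakaryocyte markers and the 2 endothelial and stromal markers, 1 each was called down, and 0 of 4 T and NK cell and 0 of 8 erythroid markers were called. In bulk RNA, a change in the number of cells of a type and a change in RNA per cell cannot be told apart. The part of these cell states in the values of *Jund*, *Fos*, *Jun* and *Junb* was not tested.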

How the data were processed

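RNA-seq of 12 libraries was analysed from the gene table that the authors deposited, whose values are TPM per gene and library, neither pooled nor averaged. The submitters' processing notes name kallisto and mm10, and the paper's methods name AltAnalyze. Counting settings, including strand, are not given in the sources used here. TPM keeps no read counts, so depth per library is unknown and precision is the spread between mice. The genes' highest values start at 2.00 TPM. Symbols matched 15252 of 15651 Ensembl identifiers.

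Samples were grouped by genotype and treatment. Genes whose mean reached 1 TPM in a compared group were tested with limma 3.58.1 (R 4.3.3) on log2(TPM + 1), eBayes without trend, two-sided, with Benjamini-Hochberg adjustment over all genes tested. The script was tested on simulated data. The sample records give DMSO and CCS1477 cells of equal number the same mouse. After removing group means, same-mouse libraries correlated at 0.340 to 0.655 and those of different mice of a genotype at up to 0.132, so the mouse was fitted as a block in an alternative. All replicates are separate mice.

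The 10 members were all named. From each list at most 4 genes called over both genotypes, those with the largest change, were named, and up to 3 genes per member by pattern. Other genes named within list counts, among them *Mapk8*, *Srf* and *Nab1*, were chosen after their values were seen, as were the antisense neighbours. The members and lists were chosen with earlier results of these data known.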

Additional observations from a re-analysis of the deposited data

Results flagged for a closer look

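For *Jun*, all 3 *D/F* mice were higher with CCS1477 and all 3 *T/F* mice were lower, and this opposite direction drew attention to it. The log2 change in *T/F* minus that in *D/F* was -1.19 (unadjusted p = 0.00671, limma interaction fit), and over all genes the adjusted p was 1.00 (0.171 with the mouse as a block). Leaving out each mouse in turn, it ranged from -1.38 to -0.997.

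*Atf3* had the same opposite direction in all mice at a low level, with a difference of -0.32 (unadjusted p = 0.456, adjusted p = 1.00, blocked adjusted p = 0.284, limma). Neither difference passed the test, and genotype and dose cannot be told apart. Groups of 3 mice were not tested for single samples that stand apart.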

How the results depend on the processing

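The number of members called above 2-fold in *D/F*, 0 in the main fit, was 1 with a filter at 5 TPM, with the replicate block, with the block at any fold, with the 4 groups in 1 fit, with scaling to the median gene, with quantile normalization and with a trend in eBayes. That member was *Jund*. In *T/F* it was 1 at any fold, 1 above 1.5-fold and 5 with the block at any fold. Over both genotypes it was 1 at any fold, 1 above 1.5-fold and 1 with the block at any fold. The fits with the block at any fold were added after the data were seen. The adjusted p of *Jund* in *T/F* was 0.0881 with the 4 groups in 1 fit. *Jun* in *T/F* passed under quantile normalization (adjusted p = 0.0477). The block changed the calls given beside the results and no other call of a member. At any fold, the counts over both genotypes were 10 other leucine zipper factors (4 above 2-fold), 2 Egr partners (0), 4 serum response factor genes (0), 8 kinases (0), 15 other immediate early genes (6), 18 target genes (8) and 5 heat shock genes (0).

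Directions turned only for changes that did not pass. The difference between genotypes for *Fosl2* was 0.01 and became -0.0064 when scaled to the median gene. The *T/F* against *D/F* value of *Fos* with CCS1477 was -0.05 and became 0.026 under quantile normalization. Leaving out each mouse in turn, the change in *D/F* ranged from -0.13 to 0.38 for *Fos* and from -0.058 to 0.18 for *Junb*. Over both genotypes it ranged from -0.29 to 0.053 for *Jun* and from -0.091 to 0.023 for *Atf3*. The difference of the responses ranged from -1.01 to 0.10 for *Egr1* and from -0.34 to 0.23 for *Fosl2*. Between genotypes, *Egr1* with DMSO ranged from -0.072 to 0.71. With CCS1477, *Fos* ranged from -0.39 to 0.44, *Egr1* from -0.57 to 0.73, *Jund* from -0.26 to 0.24 and *Junb* from -0.26 to 0.035. The causes were not tested. The files hold no read counts, and the smallest change detectable with 3 mice a group was not tested.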
